A study of Homo sapiens with 6 samples.

Results

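The 9 genes described here encode proteases that work at the cell surface or in the matrix just outside it, and inhibitors of such proteases. They are PLAU, PLAUR and PLAT of the plasminogen activator system, the serine protease inhibitor SERPINE2, the Kunitz-type inhibitors TFPI and TFPI2, the metalloproteinases MMP2 and MMP14, and the metalloproteinase inhibitor TIMP3. They were chosen by name, with earlier results of these data known, among 18417 genes that had an array row carrying their symbol alone. All 9 were measured. TIMP3 had 2 rows and each other gene 1; a gene was read from its row with the highest mean over the 6 arrays.

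RNA came from derivatives of RD18, an established cell line grown from embryonal rhabdomyosarcoma (a childhood cancer whose cells resemble unfinished muscle), and was read on 1 Affymetrix array per culture. NpBI-22 cells are an RD18 derivative made to express miR-22 on addition of doxycycline, and were profiled as 2 induced cultures, kept in 1 µg/ml doxycycline over 6 days, and as 2 cultures without it. NpBI-206AS cells, a further RD18 derivative used as an additional control, were profiled as 1 induced culture, with the same doxycycline treatment, and 1 untreated culture. The labels do not say what the NpBI-206AS construct makes or whether either derivative is 1 clone; within NpBI-206AS cells an effect of doxycycline and one of the construct cannot be told apart.

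Proteolysis around a cell runs along linked routes. PLAU (urokinase) and PLAT (tissue-type activator) cut plasminogen into plasmin, PLAUR holds urokinase at the membrane, and SERPINE2 (protease nexin 1) blocks thrombin and both activators. TFPI stops tissue factor, the starter of clotting, and TFPI2 blocks plasmin and related proteases in the matrix. MMP14 sits in the membrane and activates the gelatinase MMP2, while TIMP3, which stays bound to the matrix, inhibits metalloproteinases and several ADAM sheddases. Myoblasts use several of these enzymes when they move and fuse. Doxycycline is itself known as an inhibitor of metalloproteinase activity; only mRNA was measured here.

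The agent induced in NpBI-22 cells is shown first, since each comparison rests on it. Both mature arms of miR-22 are given 5′ to 3′ from RefSeq (GRCh38.p14, chromosome 17, minus strand). Capitals mark the seed, bases 2 to 8, which pairs with target mRNAs.
hsa-miR-22-3p: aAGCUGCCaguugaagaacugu
hsa-miR-22-5p: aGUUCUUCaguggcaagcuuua
The 2 seeds differ. Transcript sequences of the 9 genes were not used here, so no search for seed matches was made.

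Upstream sequence is shown for 4 of the 9 genes. TIMP3 and SERPINE2 differed most between induced and untreated NpBI-22 cells. TFPI2 (-2.27) and PLAUR (-0.77) had the largest log2 falls from untreated to induced NpBI-206AS cells, 1 array each. SERPINE2 (-0.62) and PLAU (-0.56) were lower there too. Each run is the 250 bases before a RefSeq start site (GRCh38.p14), 5′ to 3′ along the gene. Capitals mark, on either strand, the AP-1 motif TGANTCA, the CCAAT box (CCAAT) and the GC box (GGGCGG).
TIMP3, chr22:32801455-32801704, plus strand: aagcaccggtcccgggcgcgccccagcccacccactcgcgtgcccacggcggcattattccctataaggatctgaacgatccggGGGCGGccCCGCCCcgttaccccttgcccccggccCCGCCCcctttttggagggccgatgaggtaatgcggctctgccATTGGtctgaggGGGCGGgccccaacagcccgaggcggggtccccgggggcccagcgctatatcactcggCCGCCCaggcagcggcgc
SERPINE2, chr2:224031479-224031728, minus strand: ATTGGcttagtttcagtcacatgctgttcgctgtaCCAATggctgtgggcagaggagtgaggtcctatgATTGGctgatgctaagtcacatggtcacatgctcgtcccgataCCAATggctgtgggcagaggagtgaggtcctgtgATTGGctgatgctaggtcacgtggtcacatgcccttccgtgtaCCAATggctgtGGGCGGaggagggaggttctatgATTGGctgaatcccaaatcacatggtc
PLAUR, chr19:43670170-43670419, minus strand: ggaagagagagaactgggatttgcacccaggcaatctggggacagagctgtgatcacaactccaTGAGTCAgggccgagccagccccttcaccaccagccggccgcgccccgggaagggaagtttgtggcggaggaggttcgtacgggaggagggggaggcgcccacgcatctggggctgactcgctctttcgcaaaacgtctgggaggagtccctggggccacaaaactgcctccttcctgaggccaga
TFPI2, chr7:93890754-93891003, minus strand: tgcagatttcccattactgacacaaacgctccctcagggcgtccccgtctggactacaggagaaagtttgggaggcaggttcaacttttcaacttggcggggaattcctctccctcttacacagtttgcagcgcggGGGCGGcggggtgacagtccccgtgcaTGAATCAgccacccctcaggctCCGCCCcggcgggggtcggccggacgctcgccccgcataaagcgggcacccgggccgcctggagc
The TIMP3 window had 72.4% G and C, with 5 GC boxes and 1 CCAAT box. The SERPINE2 window is that of the more downstream of the 2 start sites with an entry and held 7 CCAAT boxes and 1 GC box. The window of its other start site held no CCAAT box, 2 GC boxes and 2 E-boxes (CAGCTG, a motif bound by muscle transcription factors). The annotated span of SERPINE2 reaches base 224039286, beyond both windows, and the sequence before that end was not read. PLAUR and TFPI2 each held 1 AP-1 motif, which began 186 and 87 bases before the start site. SERPINE2 and PLAU, also lower in induced NpBI-206AS cells, held no AP-1 motif in any of their windows. Among 35114 windows of equal length, 6.57% held an AP-1 motif, 32% a CCAAT box, 42.6% a GC box and 14% this E-box. At least 7 CCAAT boxes were found in 7 of those windows, the SERPINE2 window among them, and at least 5 GC boxes in 4.15%. Most CCAAT boxes of that SERPINE2 window lie in a stretch repeated within it. They recur at 215, 138 and 61 and at 181, 104 and 27 bases before the start site. TATAAA, present in 10.7%, was in none of the windows of the 7 genes that were read. Of the other genes read, MMP14 held 1 CCAAT box and 1 GC box, and TFPI held none of the 5 motifs. For PLAU, 1 window held 1 CCAAT box and the other 3 GC boxes. MMP2 and PLAT had no entry. These are letter matches and not measured sites, and the row of a gene does not tell which start site was in use.

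Values below are the deposited log2 expression, on which 1 unit is a 2-fold difference; the level of a gene is compared only with itself. Array medians ran from 5.66 to 5.75 and lower quartiles from 3.92 to 4.01, and every value of the 9 genes was above these quartiles. The lowest medians were those of the 2 induced NpBI-22 arrays (5.69 and 5.66), against 5.71 to 5.75 on the other 4 arrays. Of 13 markers of skeletal muscle, 11 had a mean above the median of all values, among them MYOD1, MYOG and DES, while MYF5 was under the lower quartile. The host gene of miR-22, MIR22HG, read 10.02 and 10.01 in induced and 6.27 and 6.72 in untreated NpBI-22 cells, and 6.41 and 6.32 in untreated and induced NpBI-206AS cells. The row does not separate transcripts of the construct from those of the gene itself. Both induced NpBI-22 arrays carry the code prefix R715, untreated replicate 1 carries R509, and untreated replicate 2 and both NpBI-206AS arrays carry R587. The labels do not explain the prefix; should it stand for a batch, that batch cannot be told apart from induction in NpBI-22 cells. The replicates are called biological, with no more said of how the cultures were kept apart, and the number of arrays limits the precision of each value.

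Between induced and untreated NpBI-22 cells, 1 of the 9 genes passed limma at an adjusted p under 0.05, and it was higher: TIMP3. Over all 33297 rows 3.6% passed, 1.59% being higher and 2.01% lower. The limma unadjusted p was under 0.05 for 5 of 9 genes (TIMP3, SERPINE2, PLAUR, TFPI and MMP2), against 21.6% of all rows. In 6 of 9 genes both induced arrays lay on the same side of both untreated arrays, against 51.1% of rows. The median log2 difference was 0.0041 over the 9 genes and -0.0097 over all rows. The median size of the difference, without its sign, was 0.64 over the 9 genes and 0.22 over all rows. The genes thus had no common direction: inhibitors stood at both ends, with TIMP3 and TFPI above their untreated levels and SERPINE2 below. Since the 9 genes were chosen with earlier results of these data known, their shares and median size do not test them as a set. The rows they stand beside are also unlike them: many are dim or carry no symbol, while 8 of the 9 genes had means above the median of all values.

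**Figure D1:**
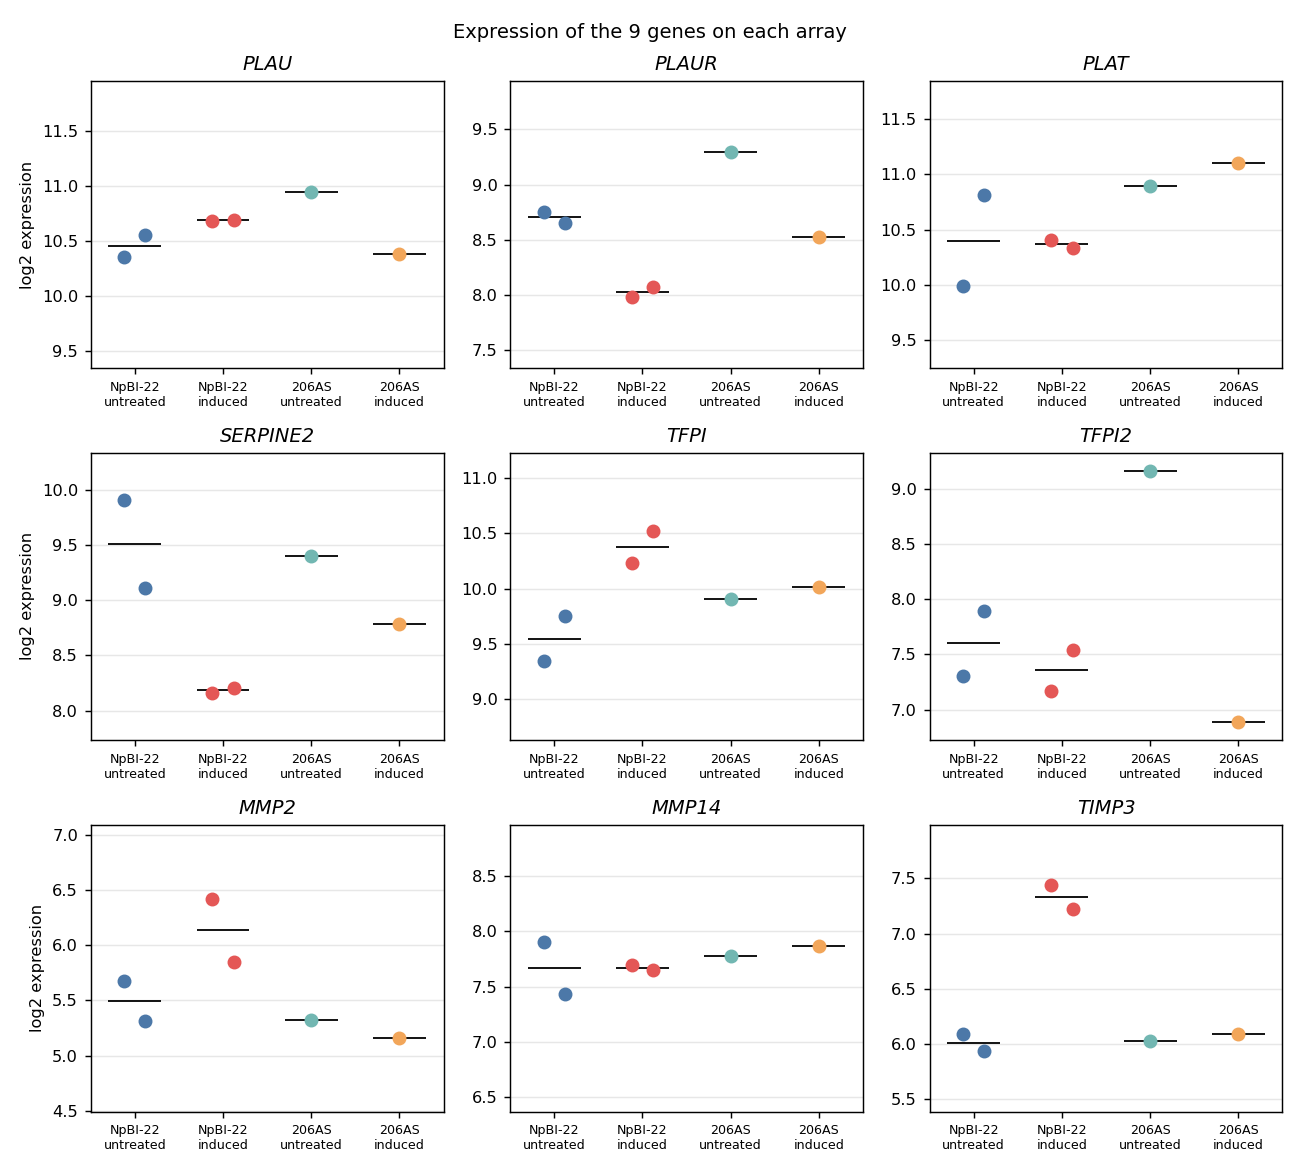
Log2 expression (vertical axis, 2.6 units tall in each panel) of the 9 genes in the 4 groups; each point is 1 array and each line a group mean. TIMP3 in both induced NpBI-22 cultures (7.44 and 7.22) stands above the other 4 arrays (5.94 to 6.09), while TFPI2 is at 9.16 in untreated NpBI-206AS cells and at 6.89 to 7.90 elsewhere.

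TIMP3 was read by row 8072626 and lies on chromosome 22 (GRCh38.p14, 32801705 to 32863041). It read 7.44 and 7.22 on the induced NpBI-22 arrays and 6.09 and 5.94 on the untreated ones. The NpBI-206AS arrays read 6.03 untreated and 6.09 induced. The 4 control arrays thus lay within 0.15 of each other, and both induced NpBI-22 arrays were above all of them. The rise was 2.49-fold, a log2 difference of 1.32 (SE 0.165, 95% interval 0.91 to 1.73, limma adjusted p = 0.025). With any 1 of the 4 NpBI-22 arrays left out, the difference was 1.21 to 1.42, and the limma adjusted p was 0.11 to 0.40; then 0 of all rows passed, with 3526 to 8113 at an unadjusted p under 0.05. A second, dimmer row of TIMP3 (8075635), with values around the arrays' lower quartiles, read 4.43 and 3.89 induced and 3.61 and 3.17 untreated in NpBI-22 cells. NpBI-206AS cells read 3.96 untreated and 4.05 induced on it, both above induced NpBI-22 replicate 2, so the groups overlapped on this row. Its log2 difference within NpBI-22 cells was 0.77 (limma adjusted p = 0.16), and with the 2 rows averaged TIMP3 differed by 1.04 (limma adjusted p = 0.058). TIMP3 lies within the span of SYN3, a neuronal synapsin gene, whose own row differed by -0.16 (limma adjusted p = 0.70).

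SERPINE2, on chromosome 2, was on the opposite side. It read 8.16 and 8.21 in induced NpBI-22 cells against 9.91 and 9.11 in untreated ones, and 9.41 and 8.79 in untreated and induced NpBI-206AS cells. Both induced NpBI-22 arrays lay below all 4 controls, but the untreated replicates were 0.80 apart, as against 0.047 between the induced replicates. The log2 difference was -1.33 (SE 0.279, 95% interval -2.02 to -0.63), a 2.51-fold lower level that did not pass (limma adjusted p = 0.066). Without untreated replicate 1 it was -0.93 and without untreated replicate 2 it was -1.73.

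PLAUR read 7.98 and 8.08 in induced and 8.75 and 8.65 in untreated NpBI-22 cells. The replicates of each pair differed by under 0.1, and the induced pair was the lower. The log2 difference was -0.67 (SE 0.15, 95% interval -1.05 to -0.30), and it did not pass (limma adjusted p = 0.074). Induced NpBI-206AS cells, at 8.52, were also below untreated ones, at 9.29. That difference, -0.77 from 1 array each, had the sign and about the size of the one in NpBI-22 cells. It started from another level, however: the untreated NpBI-206AS array was the highest of the 6 for PLAUR, as it was for PLAU and TFPI2. The induced NpBI-206AS array was near the untreated NpBI-22 arrays and above both induced ones. Whether the 2 differences have a common source was not tested.

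The activators themselves showed less. PLAU, on chromosome 10, read 10.68 and 10.69 induced against 10.35 and 10.56 untreated in NpBI-22 cells, a log2 difference of 0.23 (95% interval -0.16 to 0.62, limma adjusted p = 0.48). In NpBI-206AS cells the induced array, at 10.38, was below the untreated one, at 10.94. PLAT, on chromosome 8, read 10.40 and 10.34 induced, between the untreated replicates at 9.99 and 10.81. Its groups overlapped, and the log2 difference was -0.029 (95% interval -0.74 to 0.68, limma adjusted p = 0.97). These intervals still allow a 1.5-fold difference in either direction for PLAT, and for PLAU a higher level by up to 0.62.

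Of the 2 Kunitz-type inhibitors, TFPI read 10.23 and 10.52 in induced and 9.34 and 9.75 in untreated NpBI-22 cells, with 9.91 and 10.01 in untreated and induced NpBI-206AS cells. Both induced NpBI-22 arrays were above the other 4. The log2 difference was 0.83 (SE 0.208, 95% interval 0.31 to 1.35), which did not pass (limma adjusted p = 0.093). TFPI2 read 7.17 and 7.54 induced against 7.30 and 7.90 untreated in NpBI-22 cells, with overlapping groups. Its log2 difference was -0.24 (95% interval -0.88 to 0.39, limma adjusted p = 0.65). The related inhibitors thus had opposite signs in NpBI-22 cells, neither of them past the threshold.

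The 2 metalloproteinases were read on rows 7995681 and 7973336. MMP2, on chromosome 16, read 6.42 and 5.85 induced against 5.68 and 5.31 untreated in NpBI-22 cells, values close to the array medians. The induced arrays were above the untreated ones, though the induced replicates were 0.57 apart. The log2 difference was 0.64 (SE 0.249, 95% interval 0.017 to 1.26), and it did not pass (limma adjusted p = 0.22). Leaving out induced replicate 1 gave 0.35, and leaving out induced replicate 2 gave 0.92. MMP14, on chromosome 14, read 7.69 and 7.65 induced, between the untreated values of 7.90 and 7.43. The log2 difference was 0.0041 (95% interval -0.50 to 0.51, limma adjusted p = 0.995). Over all 6 arrays MMP14 ranged over 0.47, the smallest range of the 9 genes.

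The series names the NpBI-206AS cultures as additional controls, so the induced NpBI-22 arrays were next set against all 4 control arrays. This shares the induced arrays and both untreated NpBI-22 arrays with the comparison above. In it 3 of 9 genes passed, TIMP3 and MMP2 higher and SERPINE2 lower, against 13.7% of all rows. In 5 of 9 genes both induced arrays were beyond all 4 controls, against 37.8% of rows. TIMP3 was 2.45-fold higher (log2 difference 1.29, SE 0.118, limma adjusted p = 0.0013). With each of the 6 arrays left out in turn it stayed past the threshold, at 1.19 to 1.40 and an adjusted p of 0.0011 to 0.023 in limma. SERPINE2 was lower by a log2 difference of -1.12 (SE 0.279, limma adjusted p = 0.038), and MMP2 higher by 0.77 (SE 0.202, limma adjusted p = 0.045).

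Neither of those 2 calls was held by every set of 5 arrays. SERPINE2 lost its call without either induced array, without untreated NpBI-22 replicate 2 and without the untreated NpBI-206AS array, with log2 differences of -1.10, -1.14, -1.18 and -1.09. MMP2 kept its call only without untreated NpBI-22 replicate 1; its log2 difference fell to 0.48 when induced replicate 1 was left out and was 1.05 when induced replicate 2 was. PLAUR, at -0.77 (limma adjusted p = 0.0504), and TFPI, at 0.62 (limma adjusted p = 0.085), did not pass. PLAUR lay at the threshold: it passed in 5 of 11 alternatives, with a limma adjusted p from 0.026 to 0.26. TFPI passed in 2 of 11, from 0.044 to 0.38. PLAT (-0.33), TFPI2 (-0.46), MMP14 (-0.074) and PLAU (0.13) had adjusted p from 0.52 to 0.81 in limma.

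**Figure D2:**
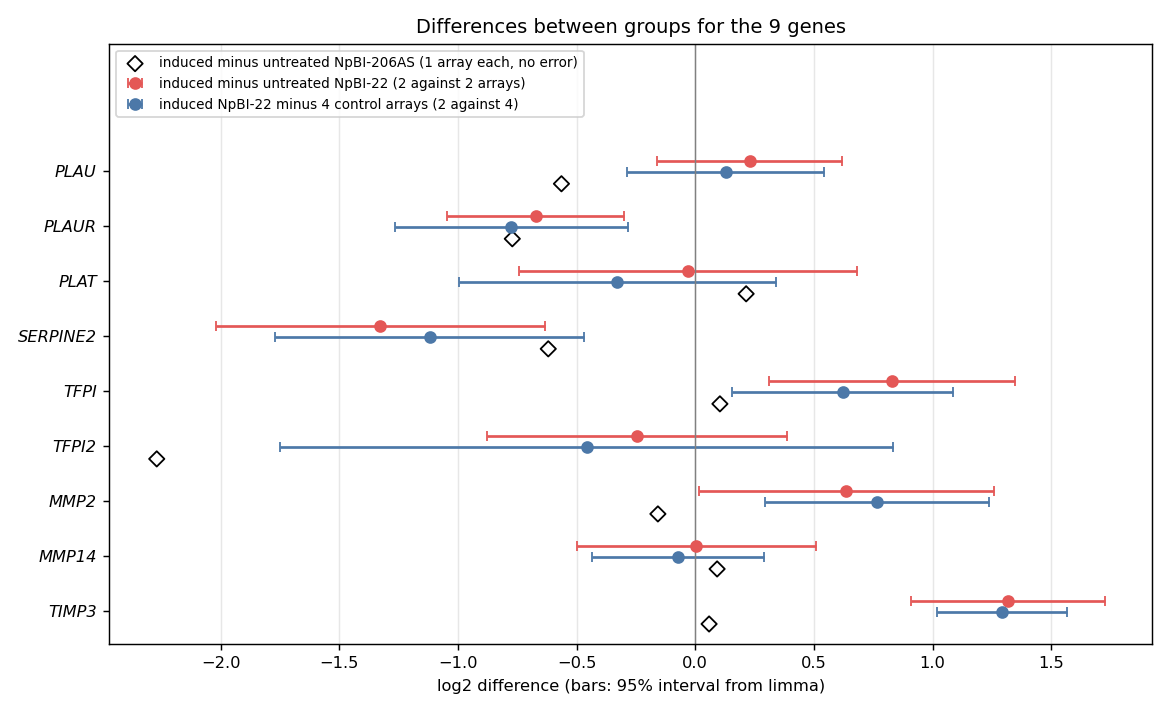
Log2 differences (horizontal axis) of the 9 genes: red for induced minus untreated NpBI-22 cells, blue for induced NpBI-22 minus the 4 control arrays, both with 95% intervals from limma, and open diamonds for induced minus untreated NpBI-206AS cells, 1 array each. The TIMP3 intervals (0.91 to 1.73 and 1.02 to 1.57) lie to the right of 0, and the TFPI2 diamond (-2.27) lies far left of its red point (-0.24).

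Leaving out untreated NpBI-22 replicate 1 leaves 3 control arrays that all carry the prefix R587. Against these, TIMP3 differed by 1.31, MMP2 by 0.87, TFPI by 0.48, PLAUR by -0.79 and SERPINE2 by -0.92, and all 5 passed (limma adjusted p from 0.0011 to 0.048). PLAT also passed there, at -0.57 (limma adjusted p = 0.019), since its 3 remaining controls read 10.81, 10.89 and 11.10, while the array left out read 9.99. Over all rows 7463 passed in that set, against 4576 with all 6 arrays. The prefix of the induced NpBI-22 arrays is still not shared by any control.

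**Figure D3:**
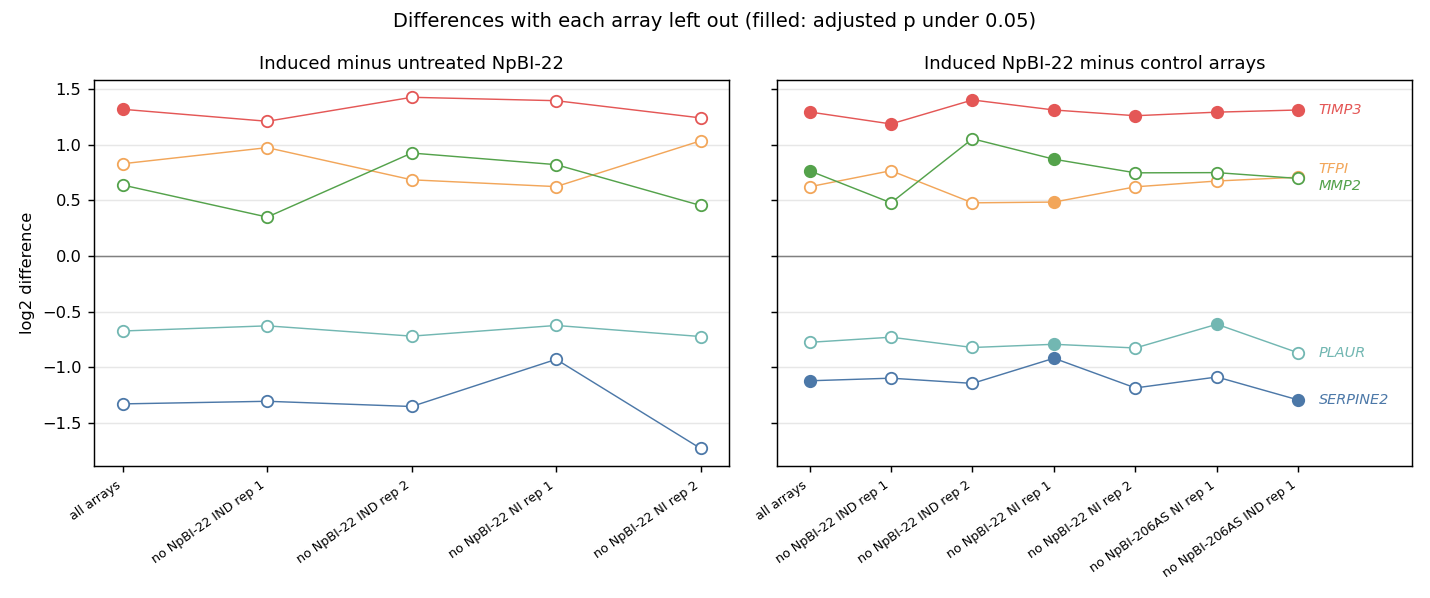
Log2 differences (vertical axis) of 5 genes with all arrays and with each array left out (horizontal axis), for induced minus untreated NpBI-22 cells on the left and induced NpBI-22 minus control arrays on the right; filled points have a limma adjusted p under 0.05. TIMP3 is filled throughout on the right (1.19 to 1.40) and only with all arrays on the left (1.32).

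Doxycycline itself was present in both induced lines, so induced NpBI-22 cells were also compared with the 1 induced NpBI-206AS array, whose spread was taken from the NpBI-22 groups. Here 0 of 9 genes passed in limma, against 0.39% of rows, and 3 of 9 had an unadjusted p under 0.05 (TIMP3, MMP2 and PLAUR), against 15.7% of rows. TIMP3 differed by 1.24 (SE 0.202, limma adjusted p = 0.077; 0.029 without the dimmer 50% of rows), MMP2 by 0.97 (SE 0.305, limma adjusted p = 0.22) and PLAUR by -0.49 (SE 0.184, limma adjusted p = 0.29). SERPINE2 differed by -0.60 and TFPI by 0.36 (limma adjusted p = 0.48 and 0.58). For SERPINE2 the estimate of -0.60 (SE 0.342) was smaller in size than the -1.33 (SE 0.279) from untreated NpBI-22 cells. Whether these 2 values differ was not tested. They share the induced NpBI-22 arrays, the first rests on 1 NpBI-206AS array, and the untreated NpBI-22 replicates behind the second were 0.80 apart.

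Within NpBI-206AS cells, with 1 array each and no test, 1 of 9 genes was at least 2-fold apart between induced and untreated cells, against 0.673% of rows. This was TFPI2, at 6.89 induced and 9.16 untreated, a 4.82-fold lower level. PLAUR (-0.77), SERPINE2 (-0.62) and PLAU (-0.56) were lower by less than that, PLAT differed by 0.21, and TIMP3 (0.058), MMP14 (0.092), TFPI (0.10) and MMP2 (-0.16) by under 0.2. TFPI2 was also the 1 gene of 9 at least 2-fold apart between the untreated lines, against 1.09% of rows. It was 2.95-fold higher in untreated NpBI-206AS than in untreated NpBI-22 cells. Both TFPI2 differences rest on the same 1 untreated NpBI-206AS array, at 9.16, while all other arrays read 6.89 to 7.90. They are thus not separate results. Untreated NpBI-206AS cells were also above the mean of untreated NpBI-22 cells for PLAUR (0.59), PLAT and PLAU (0.49 each) and TFPI (0.36). The other genes were within 0.2 of it, TIMP3 by 0.019.

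Whether the 2 lines responded differently was tested with the NpBI-206AS spread again taken from the NpBI-22 groups. In limma 0 of 9 genes passed, as did 0% of rows, and 3 of 9 had an unadjusted p under 0.05, against 8.88% of rows. These were TFPI2, with a response higher by 2.02 in NpBI-22 cells (SE 0.44, limma adjusted p = 0.35), TIMP3 by 1.26 (SE 0.285, limma adjusted p = 0.36) and PLAU by 0.79 (SE 0.271, limma adjusted p = 0.50). The TFPI2 and PLAU values again rest on the untreated NpBI-206AS array, the highest of the 6 for both genes. For PLAUR the responses differed by 0.098 (SE 0.26, limma adjusted p = 0.95) and for SERPINE2 by -0.71 (SE 0.484, limma adjusted p = 0.75). MIR22HG, the host gene of the induced miRNA, did not pass here either, at a difference of 3.62 (SE 0.342, limma adjusted p = 0.18). The test called no row at all, so its lack of calls does not show that the lines responded alike for any of the 9 genes.

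The rest of the system was read from 7 lists of related genes, 121 in all. Of these, 3 rose and 0 fell between untreated and induced NpBI-22 cells, against 1.59% of all rows higher and 2.01% lower. Among 15 measured genes of plasminogen activation 1 rose and 0 fell between untreated and induced NpBI-22 cells, with a median log2 difference of -0.044. The riser was THBS1, thrombospondin 1, a matrix protein that binds proteases and growth factors. It read 8.57 and 8.38 induced against 7.58 and 7.33 untreated, and 7.59 and 7.29 in untreated and induced NpBI-206AS cells (log2 difference 1.02, SE 0.172, limma adjusted p = 0.043). Among 14 genes of the tissue factor pathway and thrombin receptors 1 rose and 0 fell, with a median of -0.057. This was F2RL2, protease-activated receptor 3, at 6.18 and 6.45 induced against 4.90 and 4.58 untreated (log2 difference 1.57, SE 0.19, limma adjusted p = 0.025). NpBI-206AS cells had 5.36 untreated and 4.97 induced for F2RL2, below both induced NpBI-22 arrays.

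Of 17 other matrix metalloproteinases limma called 0, beside 3.6% of all rows. Among them 0 had an unadjusted p under 0.05 in limma, beside 21.6% of all rows, and the median was 0.076. The widest differences were 0.31 for MMP1 and -0.24 for MMP3 (limma adjusted p = 0.31 and 0.67), and 7 of the 17 had means under the lower quartile of all values. Of 10 metalloproteinase inhibitors and cofactors limma called 0, with 3 at an unadjusted p under 0.05 and a median of -0.19. TIMP1 read 11.25 and 11.11 induced against 10.72 and 10.49 untreated, a log2 difference of 0.57 (limma adjusted p = 0.12). TIMP2, which helps MMP14 to activate MMP2, read 9.15 and 8.88 induced against 9.82 and 9.31 untreated, a difference of -0.55 (limma adjusted p = 0.24). The 3 TIMP genes named here thus did not share a sign, and in this comparison TIMP3 passed while the other two did not.

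Of 26 ADAM and ADAMTS genes limma called 0, with 5 at an unadjusted p under 0.05, near the 21.6% of all rows, and a median of 0.027. ADAM23, a catalytically inactive member, differed by 0.97 and the sheddase ADAM17 by 0.59 (limma adjusted p = 0.061 and 0.18). Of 19 membrane serine proteases, their inhibitors and convertases limma called 0, with 2 at an unadjusted p under 0.05 and a median of -0.10. FURIN, the convertase that activates MMP14, differed by -0.67 (limma adjusted p = 0.14), and HGF, a growth factor activated by such proteases, by -0.44 (limma adjusted p = 0.21). Of 20 cathepsins and cystatins 1 rose and 0 fell, beside 1.59% and 2.01% of all rows, with a median of 0.13. The cysteine protease gene CTSO read 6.18 and 6.24 induced against 5.04 and 4.74 untreated (log2 difference 1.32, SE 0.17, limma adjusted p = 0.026), and 5.08 and 5.68 in untreated and induced NpBI-206AS cells. The median over all rows was -0.0097, and the medians of the 7 lists lay between -0.19 and 0.13. Against the 4 control arrays 9 of the 121 genes were higher and 3 lower, beside 13.7% of all rows in either direction. THBS1 (1.03), F2RL2 (1.36) and CTSO (1.08) passed there too, and so did TIMP1 (0.52), ADAM23 (0.88), ADAM17 (0.57) and FURIN (-0.72; limma adjusted p of these 7 from 0.0045 to 0.046).

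**Figure D4:**
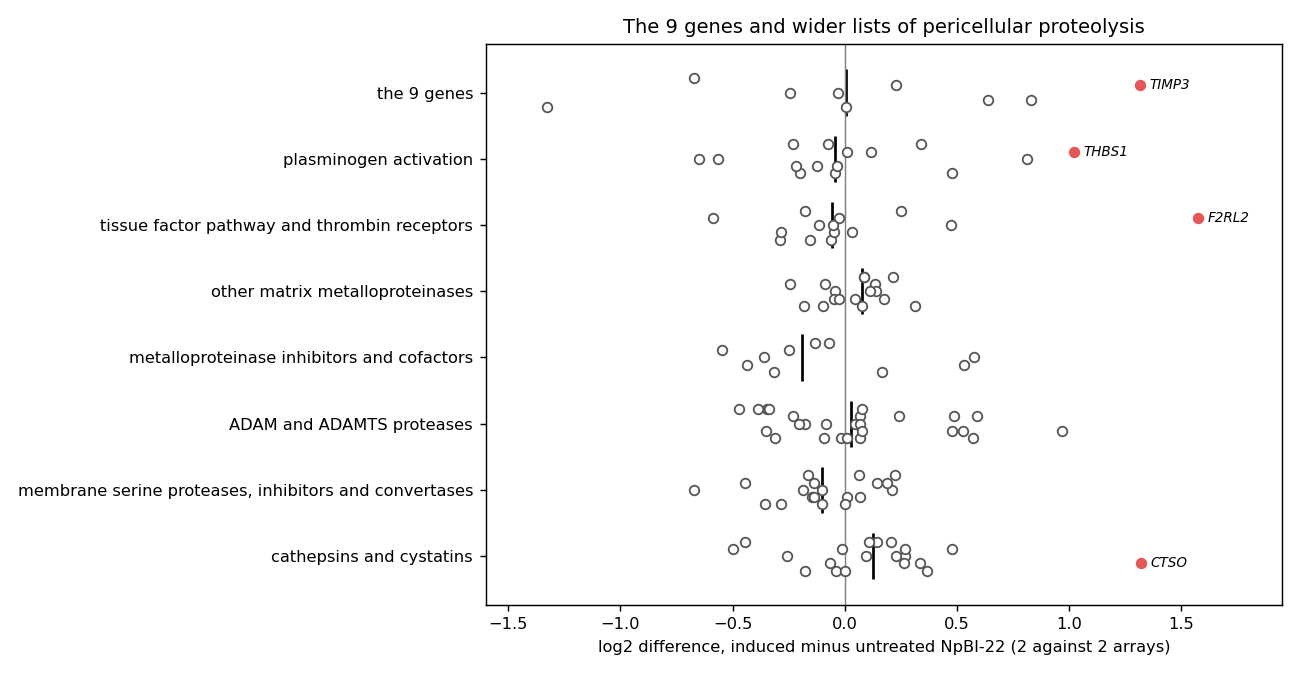
Log2 difference between induced and untreated NpBI-22 cells (horizontal axis) for the 9 genes and for 7 lists of related genes (rows); each circle is 1 gene, placed at slightly different heights only for legibility, red filled circles passed at a limma adjusted p under 0.05, and black lines are list medians. The 4 named circles (TIMP3, THBS1, F2RL2 and CTSO, 1.02 to 1.57) stand to the right of all other genes drawn, and no gene passed on the left.

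Several of the 9 genes are also made by fibroblasts and endothelium, so markers of other cell types were read beside them. Of 9 fibroblast markers 1 rose, THY1, at 10.17 and 9.78 induced against 8.47 and 8.46 untreated in NpBI-22 cells (log2 difference 1.51, limma adjusted p = 0.025), and 0 fell, beside 1.59% and 2.01% of all rows. The median log2 difference of the fibroblast list was -0.068, so the list as a whole did not rise. COL1A1, for one, read 9.52 and 9.43 induced against 10.25 and 9.43 untreated in NpBI-22 cells. The summed level of the fibroblast list, on the log2 scale, was 12.64 and 12.58 in induced and 12.50 and 12.23 in untreated NpBI-22 cells, and 12.17 and 12.46 in untreated and induced NpBI-206AS cells. COL3A1, the brightest of the list (mean 11.82), weighs most in this sum. Of the 9, COL3A1, COL1A1, THY1 and FBLN1 had means above the median of all values (8.37 to 11.82), while PDGFRA, DPT, TCF21, LUM and DCN did not. DCN read 5.42 and 5.81 induced against 4.79 and 4.91 untreated in NpBI-22 cells and 3.83 and 4.17 in untreated and induced NpBI-206AS cells, and against the 4 control arrays it was higher (log2 difference 1.19, limma adjusted p = 0.043). The part of this list in the TIMP3 and MMP2 results was not tested. Of the endothelial, blood and epithelial markers (10, 9 and 8 measured) limma called 0, beside 3.6% of all rows. The limma unadjusted p was under 0.05 for 2 of these markers, beside 21.6% of all rows. Summed log2 levels of these lists were 8.64 to 8.76, 8.02 to 8.13 and 7.94 to 7.97 in induced NpBI-22 cells. In untreated NpBI-22 cells they were 8.79 to 8.83, 7.97 to 7.99 and 7.93 to 8.06. Of these lists, 2 of 10, 1 of 9 and 1 of 8 genes had means above the median of all values: TEK (7.49) and CLDN5 (6.33), TYROBP (5.80) and KRT14 (6.19). CDH5, VWF, PECAM1, PTPRC and EPCAM were at 2.66 to 4.71 on every array. Of the 13 skeletal muscle markers 3 fell, MYH3 (-2.79), CHRNG (-1.33) and DES (-1.07; limma adjusted p from 0.015 to 0.038), and 0 rose, beside 2.01% and 1.59% of all rows. Their summed log2 level was 12.59 to 12.67 in induced and 13.01 to 13.24 in untreated NpBI-22 cells, and 12.76 and 12.96 in untreated and induced NpBI-206AS cells. The median log2 difference of the 13 was -0.69. Against the 4 control arrays 4 were lower and 1 higher, beside 13.7% of all rows in either direction. MYH3 read 5.26 and 4.86 in induced and 8.02 and 7.69 in untreated NpBI-22 cells. NpBI-206AS cells read 6.40 untreated and 5.95 induced for MYH3. MYF6 went the other way, at 4.94 and 4.84 induced against 4.46 and 4.28 untreated in NpBI-22 cells. So did PAX7 (7.43 and 7.11 against 7.07 and 6.80) and, by little, MYF5 (3.96 and 3.92 against 3.89 and 3.91). Whether the 9 genes moved with these muscle markers was not tested.

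TFPI2 and SERPINE2 had the widest range of the 4 group means, 2.27 and 1.33, and the genes most like them over the 6 arrays were listed among 1151 genes with group means at least 1 apart. For TFPI2 these were RAB39A, ITGB8 and ZNF114, with Pearson r of 0.92, 0.91 and 0.88. ITGB8, an integrin chain, read 8.98 in untreated NpBI-206AS cells and 7.21 to 7.87 on the other arrays, so that the same array was high as for TFPI2. For SERPINE2 they were APOBEC3B, PAXIP1 and LOC100506730, with r of 0.98, 0.97 and 0.97. APOBEC3B, a cytidine deaminase gene, read 7.84 and 7.77 in induced NpBI-22 cells and 8.55 to 9.20 on the other arrays. These coefficients describe 6 arrays that share lines and code prefixes, and genes were picked for them.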

How the data were processed

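Total RNA of 6 RD18 cultures was read on 1 array each; the array's number of replicates, not any depth, limits precision. The deposited values are log2 expression per array row, and RMA and Partek are named in the submitters' processing notes without versions. Genome build and chip library: not given in the sources used here. RMA gives all arrays a like distribution, which hides any shift shared by every transcript. Groups came from the sample titles. Rows were named through the platform annotation: 19460 rows had 1 symbol, 1754 several and 12083 none. Of the first, 19429 had their gene ID in a RefSeq gene table (GRCh38.p14), used to update symbols.

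Tests were limma 3.58.1 (R 4.3.3), two-sided; p-values were adjusted by Benjamini-Hochberg across the 33297 rows, and under 0.05 counted as passing. A linear model with 1 mean per group (2 residual and 3.62 prior degrees of freedom) gave the comparisons within NpBI-22 cells, between induced lines and between responses. A 2-group model (4 and 3.57) set induced NpBI-22 against the other 4 arrays. With 1 array each, a difference of at least 2-fold was counted instead. The models were also run on data simulated with known shifts and independent normal noise, with the same spread in every group. That run cannot speak to batches or to unequal spread between groups. Named genes were the 9 chosen genes, MIR22HG, from each list up to 4 genes that passed or otherwise the 2 with the largest difference, and the 3 genes most like each of the 2 widest-ranging members. Some genes, such as SYN3 and the markers COL1A1, DCN and MYF6, were named outside this rule. Members and lists were chosen with earlier results of these data known. Upstream windows and miRNAs came from RefSeq tables. Figures used matplotlib 3.10.9. Alternatives were array centring, repeated quantile normalization, a filter on dim rows, an intensity trend, a replicate block, row averaging and leaving out arrays.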

Additional observations from a re-analysis of the deposited data

Results flagged for a closer look

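PLAU and MMP2 had opposite signs in the 2 lines. For PLAU both induced NpBI-22 arrays were above both untreated ones, while the induced NpBI-206AS array was below the untreated one; the response in NpBI-22 minus that in NpBI-206AS cells was 0.79 on the log2 scale (limma adjusted p = 0.50). For MMP2 the same pattern held, with a difference between the responses of 0.79 (SE 0.432, limma adjusted p = 0.67). The difference between the lines did not pass in either gene, and the NpBI-206AS response rests on 1 array per condition. For MMP2 that response, -0.16, was smaller than the gaps between NpBI-22 replicates (0.37 untreated and 0.57 induced), so its sign cannot be read. For PLAU the untreated NpBI-206AS array, at 10.94, was the highest of the 6. The induced one, at 10.38, lay between the untreated NpBI-22 arrays (10.35 and 10.56).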

How the results depend on the processing

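Between induced and untreated NpBI-22 cells limma called 1200 rows, against 2611 without the dimmer 50% of rows, 2955 with a replicate block and 0 with any 1 NpBI-22 array left out. For induced NpBI-22 against the 4 control arrays the count was 4576, or 897 to 7463 with 1 array left out. Between the induced lines it was 130, against 747 without dim rows, 849 with the replicate block and 0 to 130 with 1 array left out. For the difference between responses it was 0 in every setting run. With median-centred arrays the first comparison had 718 rows higher and 574 lower in place of 531 and 669, the second 2628 and 2042 in place of 2103 and 2473, and the third 68 and 38 in place of 68 and 62.

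Within NpBI-22 cells, 38 of 45 values of the 9 genes under alternatives that keep all arrays had the same sign and side of the threshold, 1 lost a call, 5 gained one and 1 changed sign. With 1 array left out 0 rows passed, so staying uncalled says nothing there; 5 of 36 values changed sign. A fit to the 4 NpBI-22 arrays alone gave the same values by construction. The lost calls were TIMP3 with an array left out or its rows averaged (adjusted p = 0.058 to 0.40 in limma). The gains were SERPINE2, TFPI and PLAUR without dim rows (limma adjusted p = 0.020, 0.039 and 0.037), and SERPINE2 and TFPI with the replicate block (0.030 and 0.035). Between the induced lines TIMP3 passed without dim rows and with the replicate block (limma adjusted p = 0.029 and 0.040; 0.029 to 0.62 over all alternatives). Over all alternatives these 3 genes ran from 0.020 to 0.47, from 0.035 to 0.49 and from 0.037 to 0.46. PLAT changed sign with centring (0.042), and PLAT, TFPI2 and MMP14 did with 1 array left out, with ranges of -0.44 to 0.38, -0.54 to 0.051 and -0.23 to 0.24. The labels only number the replicates; deviations of same-numbered arrays correlated at 0.196 over rows, and this block is no evidence of pairing. MMP2 was among the dim rows and has no value there.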
